A study of Mus musculus with 10 samples.

Results

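The integrin chains, the integrin-like gene Itgbl1 and the proteins that link integrins to the cytoskeleton were followed in mouse pre-osteoblasts that matured with or without an EZH2 inhibitor. The 36 genes were taken by symbol from the deposited table of 23358 gene rows. They comprise 17 alpha chains, 8 beta chains, Itgbl1 and 10 intracellular partners. MC3T3, an established line from mouse calvaria, was cultured in osteogenic medium with vehicle or with 5 µM GSK126, a small molecule that blocks the methyltransferase EZH2. All groups share the line and the osteogenic medium. The vehicle groups are day 3, day 6 and day 10 of culture, and the GSK126 groups are the same days. GSK126 was given at the start and again 3 days later and was taken away on day 6, so that on day 10 its removal and the longer culture cannot be told apart. RNA was sequenced from 1 library per treatment and day (6 libraries), and H3K27me3, the histone mark made by EZH2, from 1 immunoprecipitation and 1 input library per treatment 24 hours after the first dose. The labels do not state whether the 6 libraries stem from separate cultures, and the p-values below therefore speak only of these libraries. With 1 library per treatment and day there is no spread among replicates. The spread behind the p-values is how far the treatment differences vary between days. A lower value in such bulk RNA can mean fewer cells that express a gene or less RNA per cell, which cannot be told apart.

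Integrins are surface receptors built from an alpha and a beta chain. The alpha chain largely decides the ligand: some bind collagens, some bind the Arg-Gly-Asp (RGD) motif of fibronectin, vitronectin and osteopontin, and some bind laminins, while others are made mostly by leukocytes. Inside the cell, talin and kindlin (Fermt2) activate the receptor, vinculin, zyxin, paxillin, parvin and integrin-linked kinase tie it to actin, and focal adhesion kinase (Ptk2) signals from it. In bone, osteoblasts rest on a matrix of collagen and RGD proteins that they secrete themselves.

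Total counts lay between 97291878 and 111537936 per library, and every deposited count was even. A total of 34 of the 36 genes had a nonzero count in all 6 libraries and passed the filter on low counts. Itgam and Itgax, leukocyte alpha chains, had 0 to 6 and 0 to 4 counts and were not tested. Of the 6 osteoblast markers, 5 had a CPM (counts scaled to library size) of 1 or more in every library. Markers of endothelium and platelets and of epithelium were near 0 (summed CPM of 0.162 to 0.661 and of 0.439 to 0.806), and Kdr and Krt18 were at 0 in all libraries. Summed leukocyte markers lay between 3.71 and 5.74 CPM, mostly from Cd14 and Cd68, with Ptprc, which defines leukocytes, at no more than 0.0527 CPM.

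Levels are given as the deposited RPKM (counts scaled to coding length and to a library total used by the submitters), which can be compared between genes. Itgb1, the beta chain that pairs with the most alpha chains, had the highest level of the 36 genes, with a mean of 158 RPKM over the 6 libraries (135 to 173). Itgb5, a partner of Itgav in vitronectin receptors, followed among the beta chains at 84.2 RPKM (70.8 to 99.6). Both stood far above Itgb3, the other vitronectin receptor chain, whose mean was 6.88 RPKM. The remaining beta chains, Itgb2, Itgb4, Itgb6, Itgb7 and Itgb8, stayed below 0.55 RPKM in every library. Among the alpha chains Itgav, the RGD receptor chain, was highest at 31.5 RPKM. The collagen receptor chains Itga10 (21.3 RPKM) and Itga11 (20.8 RPKM) and the fibronectin receptor chain Itga5 (17.7 RPKM) came next, and neighbours in this order had overlapping ranges over the libraries. Itga8, an RGD receptor chain, had a mean of 12.4 RPKM and Itga3, a laminin receptor chain, a mean of 11.8 RPKM, again with overlapping ranges. Mean RPKM was 4.01 for Itga1, 1.79 for Itga9 and 1.15 for Itga2b, and below 1 for the other 8 alpha chains. In all, 23 of the 36 genes had a mean RPKM of 1 or more. Of the intracellular partners, vinculin (Vcl, 98.0 RPKM), talin 1 (Tln1, 74.8 RPKM) and Ilk (64.6 RPKM) were the highest.

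The first comparison asks which of these genes changed as the cells matured, from day 3 to day 10, over both treatments. Itgbl1 rose about 30-fold, while 10 genes fell: the alpha chains Itga1, Itga3, Itga5, Itga6, Itga9 and Itgav, the beta chain Itgb3, and the partners Tln1, Tln2 and Zyx. The most abundant beta chains, Itgb1 and Itgb5, had fitted log2 differences of -0.04 (SE 0.13) and 0.04 (SE 0.09). The test was edgeR's quasi-likelihood F test with day and treatment as additive terms and Benjamini-Hochberg adjustment over 14344 genes. The 10 genes that fell are 29.4% of the 34 tested, beside 12.5% of all genes tested, and the 1 gene that rose is 2.94%, beside 14.1%. A negative difference of any size was found in 22 of 34 (64.7%, beside 50.6% of all genes), and the median log2 difference was -0.23 in the 34 genes and -0.01 in all genes. Summed smooth muscle markers moved in the same direction, from 2644 to 1017 CPM in vehicle and from 1842 to 757 CPM with GSK126 between days 3 and 10, and 4 of 5 such markers fell, all but Des (0.03, SE 0.18). Of the 4 that fell, Cnn1 and Myh11 were scarce, at no more than 0.509 CPM in any library. Most of the sum was Acta2, smooth muscle actin, which went from 2455 to 906 CPM in vehicle. Their part in the lower adhesion genes was not tested.

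**Figure D1:**
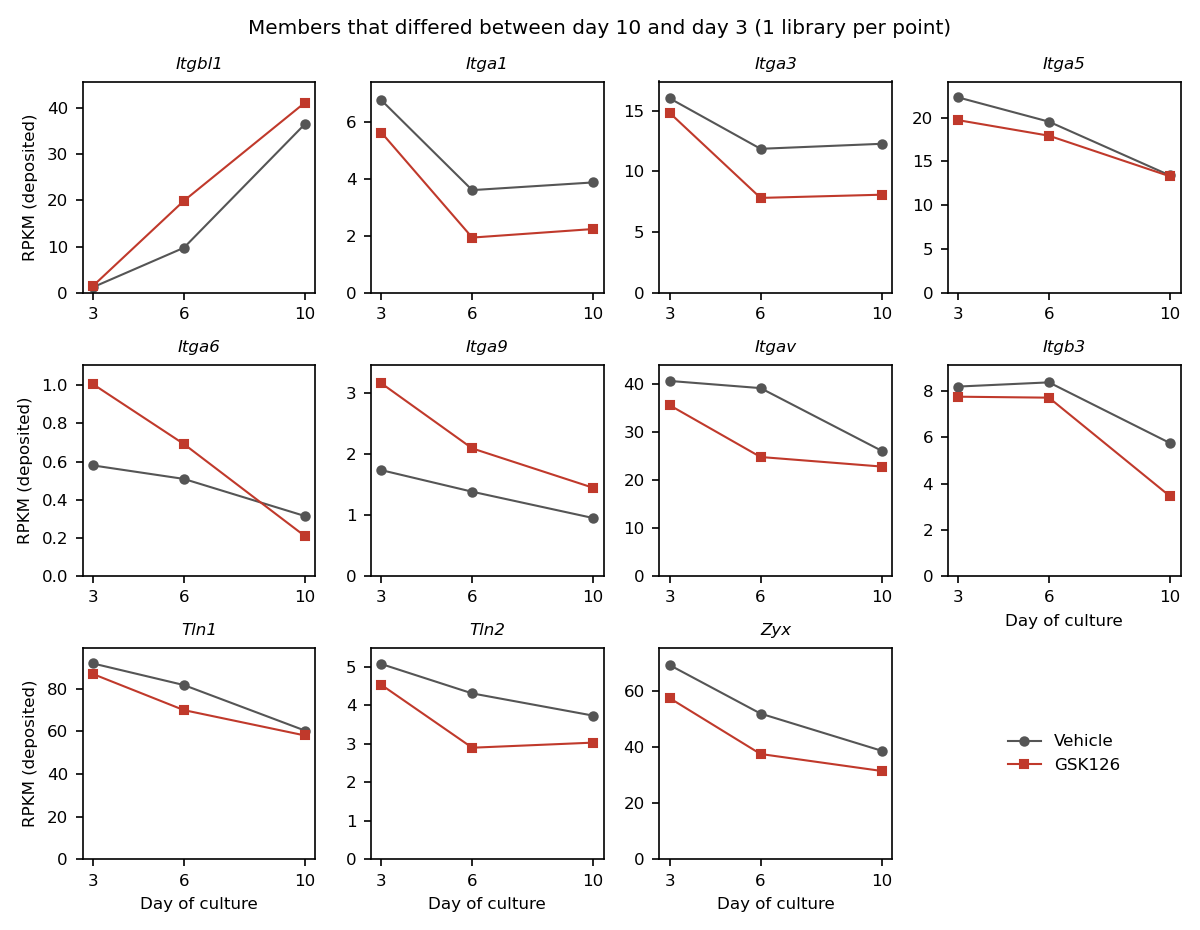
Deposited RPKM (vertical axis, starting at 0) on days 3, 6 and 10 of culture (horizontal axis) for the 11 genes that passed the test of day 10 against day 3, with 1 library per point, vehicle as grey circles and GSK126 as red squares. Itgbl1 climbed from 1.19 to 36.5 RPKM in vehicle and from 1.49 to 41.2 with GSK126, and the other 10 genes were lower on day 10 than on day 3 in both treatments.

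Itgbl1 (chr14:123660140-123974079, mm10) encodes a secreted protein with repeats like those of the integrin beta stalk, but without the parts that bind ligand or cross the membrane. Its vehicle libraries held 1.19, 9.73 and 36.5 RPKM on days 3, 6 and 10 (396, 3002 and 10436 counts), and its GSK126 libraries held 1.49, 19.9 and 41.2 RPKM (486, 5938 and 11936 counts). Day 3 was lowest and day 10 highest in both treatments, and the days did not overlap. From day 3 to day 10 its log2 difference was 4.94 (SE 0.24, 30.7-fold, edgeR adjusted p = 0.00281), and from day 3 to day 6 it was 3.47 (SE 0.23, 11.1-fold, edgeR adjusted p = 0.0112). No other gene of the 36 passed between days 3 and 6, beside 0.516% of all genes higher and 0.237% lower. From day 6 to day 10 the difference of Itgbl1 was 1.46 (SE 0.21, edgeR adjusted p = 0.0585). The log2 ratio of day 10 to day 3 was 4.97 within vehicle and 4.88 within GSK126.

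Because Itgbl1 was the single gene of the 36 that rose, the 250 bases before its start are shown, beside those of Itga1, which fell by the most among members above 1 RPKM. The sequences are RefSeq's for GRCm38.p6, at chr14:123659890-123660139 (plus strand) for Itgbl1 and chr13:115101965-115102214 (minus strand) for Itga1, 5′ to 3′ along the gene, and they were chosen after the values were seen. They were searched on both strands for the CArG box (the site of serum response factor), GGAATG (TEAD), TGANTCA (AP-1) and TGTGGT (RUNX). Neither holds any of these motifs, so nothing is in capitals, which says only that the letters are not in these windows.
Itgbl1: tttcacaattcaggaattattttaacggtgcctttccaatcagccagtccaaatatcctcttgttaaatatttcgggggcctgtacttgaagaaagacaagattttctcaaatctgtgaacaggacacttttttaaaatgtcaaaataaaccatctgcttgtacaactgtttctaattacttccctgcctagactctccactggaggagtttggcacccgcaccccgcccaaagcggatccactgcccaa
Itga1: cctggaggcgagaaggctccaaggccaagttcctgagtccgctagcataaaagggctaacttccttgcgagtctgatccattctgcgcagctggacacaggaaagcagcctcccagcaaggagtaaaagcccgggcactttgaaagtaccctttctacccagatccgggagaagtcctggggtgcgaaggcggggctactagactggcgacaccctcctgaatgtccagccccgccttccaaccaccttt
Over all 32851 promoters of this length, 1.47% hold a CArG box, 12.6% GGAATG, 6.75% TGANTCA and 14% TGTGGT. The Itgbl1 window has a GC content of 42.4% with 5 CpG and the Itga1 window 57.6% with 10 CpG, beside a median of 6 CpG over all promoters. Of the 36 genes, 25 have such a sequence, and in 24 its start lies within 100 bases of the deposited gene start.

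Among the collagen-binding alpha chains, Itga1 (chr13:114958081-115101964) fell while the more abundant Itga10 and Itga11 did not. Itga1 held 6.78, 3.61 and 3.88 RPKM in vehicle and 5.64, 1.94 and 2.24 RPKM with GSK126 on days 3, 6 and 10. Its log2 difference from day 3 to day 10 was -1.01 (SE 0.17, edgeR adjusted p = 0.0164). From day 3 to day 6 it was already -1.16 (SE 0.17, edgeR adjusted p = 0.0608), and from day 6 to day 10 it was 0.15 (SE 0.16). The Pelo gene lies within Itga1, and the RNA kit does not mark strand, so some reads cannot be assigned with certainty. Itga10 (chr3:96645584-96664519) held 16.0, 18.6 and 18.5 RPKM in vehicle and 18.5, 28.4 and 27.9 RPKM with GSK126. Its difference from day 3 to day 10 was 0.46 (SE 0.13, edgeR adjusted p = 0.0566), with a call under DESeq2 (adjusted p = 0.0213). Itga11 (chr9:62677855-62783979) held 19.4, 16.2 and 18.3 RPKM in vehicle and 19.1, 26.7 and 25.3 RPKM with GSK126, a difference of 0.21 (SE 0.19). Itga2, the remaining collagen receptor chain, stayed at or below 0.11 RPKM.

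The RGD-binding alpha chains were split. Itgav (chr2:83724397-83806916) held 40.7, 39.2 and 26.1 RPKM in vehicle and 35.6, 24.8 and 22.8 RPKM with GSK126 on days 3, 6 and 10. Itga5 (chr15:103344286-103366748) held 22.3, 19.6 and 13.4 RPKM in vehicle and 19.7, 17.9 and 13.3 RPKM with GSK126. In both genes each day-10 library was below each day-3 library, and they fell by 0.57 (SE 0.15, edgeR adjusted p = 0.0425) and by 0.58 (SE 0.09, edgeR adjusted p = 0.0158) on the log2 scale. Itga8 (chr2:12106660-12301920), which pairs with Itgb1 and binds nephronectin, held 11.7, 14.5 and 14.4 RPKM in vehicle but 15.4, 9.09 and 9.12 RPKM with GSK126. Its ratio of day 10 to day 3 was 0.34 within vehicle and -0.65 within GSK126 on the log2 scale, and the difference fitted over both was -0.19 (SE 0.27). Itga2b, known from platelets, held 1.07, 1.1 and 1.85 RPKM in vehicle and 0.941, 1.12 and 0.838 RPKM with GSK126.

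Of the 3 laminin receptor chains, Itga3 and Itga6 fell. Itga3 (chr11:95044482-95076714) held 16.0, 11.9 and 12.3 RPKM in vehicle and 14.8, 7.82 and 8.08 RPKM with GSK126, and its log2 difference was -0.57 (SE 0.14, edgeR adjusted p = 0.0347). Itga6 (chr2:71787083-71856758) held 0.580, 0.509 and 0.314 RPKM in vehicle and 1.01, 0.692 and 0.209 RPKM with GSK126. Its difference was -1.48 (SE 0.35, edgeR adjusted p = 0.0336), made of a ratio of -0.84 within vehicle and -2.15 within GSK126. Itga7, the third chain of this group, held 0.261, 0.399 and 0.300 RPKM in vehicle and 0.197, 0.441 and 0.210 RPKM with GSK126 and did not pass (0.22, SE 0.27). Itga9 (chr9:118606709-118901003), which binds tenascin-C and osteopontin, held 1.73, 1.38 and 0.948 RPKM in vehicle and 3.15, 2.09 and 1.44 RPKM with GSK126. It fell by 0.93 between days 3 and 10 (SE 0.12, edgeR adjusted p = 0.0122). Itga4, a relative of Itga9, held 0.0634, 0.0606 and 0.0789 RPKM in vehicle and 0.0837, 0.0692 and 0.0712 RPKM with GSK126, and its days overlapped.

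Of the beta chains only Itgb3 (chr11:104608000-104670471) passed. It held 8.21, 8.39 and 5.76 RPKM in vehicle and 7.77, 7.73 and 3.46 RPKM with GSK126, and the difference between days 3 and 10 was -0.76 (SE 0.16, edgeR adjusted p = 0.0274). Days 3 and 6 were close in both treatments, and the day-10 libraries were the lowest. Itgb1 (chr8:128685654-128733579) held 164, 161 and 135 RPKM in vehicle and 155, 173 and 162 RPKM with GSK126. Itgb5 (chr16:33829665-33949338) held 88.8, 99.6 and 91.4 RPKM in vehicle and 75.8, 78.9 and 70.8 RPKM with GSK126. In Itgb1 the order of the days differed between the treatments. In Itgb5 it differed in RPKM but not in the CPM used for the ratios. These were 356, 417 and 376 in vehicle and 303, 331 and 303 with GSK126. Without TMM normalization, that is with library size alone, the median of all genes moved to -0.11, and the small difference of Itgb5 turned from 0.04 to -0.06. All 10 falls remained under that scaling, and Ptk2 and Lims1 joined them, beside that lower median of all genes.

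Among the intracellular partners, 3 of 10 fell (beside 12.5% of all genes), and 9 of 10 had a negative difference (beside 50.6%). Talin 1, Tln1 (chr4:43531513-43562583), held 91.9, 81.8 and 60.4 RPKM in vehicle and 86.9, 70.0 and 58.1 RPKM with GSK126, and its log2 difference was -0.53 (SE 0.11, edgeR adjusted p = 0.0243). Zyxin, Zyx (chr6:42349828-42358395), held 69.2, 51.9 and 38.7 RPKM in vehicle and 57.4, 37.5 and 31.5 RPKM with GSK126, a difference of -0.79 (SE 0.10, edgeR adjusted p = 0.0122). Both were ordered day 3, day 6, day 10 from high to low in each treatment. Talin 2, Tln2 (chr9:67217085-67559703), held 5.08, 4.31 and 3.73 RPKM in vehicle and 4.53, 2.90 and 3.03 RPKM with GSK126. It fell by 0.45 (SE 0.12, edgeR adjusted p = 0.045), and the call was lost without the filter on low counts (edgeR adjusted p = 0.0533). Vinculin, Vcl (chr14:20929433-21033673), held 119, 96.6 and 76.4 RPKM in vehicle and 114, 86.0 and 96.5 RPKM with GSK126. Its difference was -0.36 (SE 0.16, edgeR adjusted p = 0.144), with ratios of -0.60 within vehicle and -0.14 within GSK126. Ilk held 71.2, 63.8 and 60.8 RPKM in vehicle and 66.6, 61.8 and 63.5 RPKM with GSK126, with Rrp8 and Taf10 overlapping its ends. Ptk2, Pxn, Parva, Lims1 and Fermt2 had differences between -0.32 and 0.22 and did not pass.

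The windows before the starts of Zyx, which was lower on day 10 in each treatment, and Vcl, the most abundant partner, are shown because they are 2 of the 4 windows among the partners that hold any of the motifs above. They come from RefSeq for GRCm38.p6, at chr6:42349578-42349827 and chr14:20929148-20929397, both on the plus strand. Capitals mark the matches. In Zyx they mark the AP-1 match, 121 to 115 bases before the start, where the pattern TGANTCA fits both strands. In Vcl they mark the CArG box, 227 to 218 bases before the start, and then GGAATG, 143 to 138 bases before it.
Zyx: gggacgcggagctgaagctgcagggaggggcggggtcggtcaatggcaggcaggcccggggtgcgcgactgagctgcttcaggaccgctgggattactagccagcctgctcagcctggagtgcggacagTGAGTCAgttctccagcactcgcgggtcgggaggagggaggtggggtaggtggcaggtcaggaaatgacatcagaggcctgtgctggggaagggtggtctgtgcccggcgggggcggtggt
Vcl: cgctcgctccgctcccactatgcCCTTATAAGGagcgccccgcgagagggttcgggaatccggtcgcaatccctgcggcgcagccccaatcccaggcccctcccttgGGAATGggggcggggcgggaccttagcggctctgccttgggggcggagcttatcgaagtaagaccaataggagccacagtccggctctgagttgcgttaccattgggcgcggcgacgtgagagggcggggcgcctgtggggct
Among the 24 matched windows of the 36 genes, 2 hold a CArG box (Vcl and Fermt2), 3 hold GGAATG (Itga10, Itgb1 and Vcl), 2 hold TGANTCA (Itgax and Zyx) and 2 hold TGTGGT (Itga4 and Ilk). Of the 6 windows of genes that fell, 1 holds a match, that of Zyx. These are matches of letters and not measured binding sites.

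Between days 6 and 10 edgeR's quasi-likelihood test called 0 of the 34 genes in either direction, beside 0.00697% of all genes higher and 0% lower. At an unadjusted p below 0.05 there were 9 of 34 genes (26.5%, beside 28.5% of all genes). DESeq2 called 1 higher, Itgbl1 (beside 9.23% of all genes), and 5 lower, Itga5, Itga6, Itga9, Itgb3 and Tln1 (beside 8.4%), while limma-voom called 0.

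The second comparison asks which of these genes differed between GSK126 and vehicle, with the within-day difference averaged over the 3 days. Itga9 rose with GSK126, and no gene of the 36 fell by the same test. Itga10 stood higher on all 3 days, Itga11 on days 6 and 10, and Itga1, Itga3 and Itgb5 stood lower on all 3 days, but these differences did not pass over all genes with edgeR. The 1 call among 34 tested genes is 2.94% higher, beside 1.01% of all genes, and 0% lower, beside 0.272%. At an unadjusted p below 0.05 there were 12 of 34 (35.3%, beside 19.6% of all genes). DESeq2 called 2 higher (Itga9 and Itga10, beside 4.99% of all genes) and 4 lower (Itga1, Itga3, Itgb5 and Zyx, beside 4.61%), and limma-voom called 1 higher, Itga9, and 0 lower. The median log2 difference was -0.05 in the 34 genes and -0.000763 in all genes, and 18 of 34 were negative (52.9%, beside 50.2%).

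**Figure D2:**
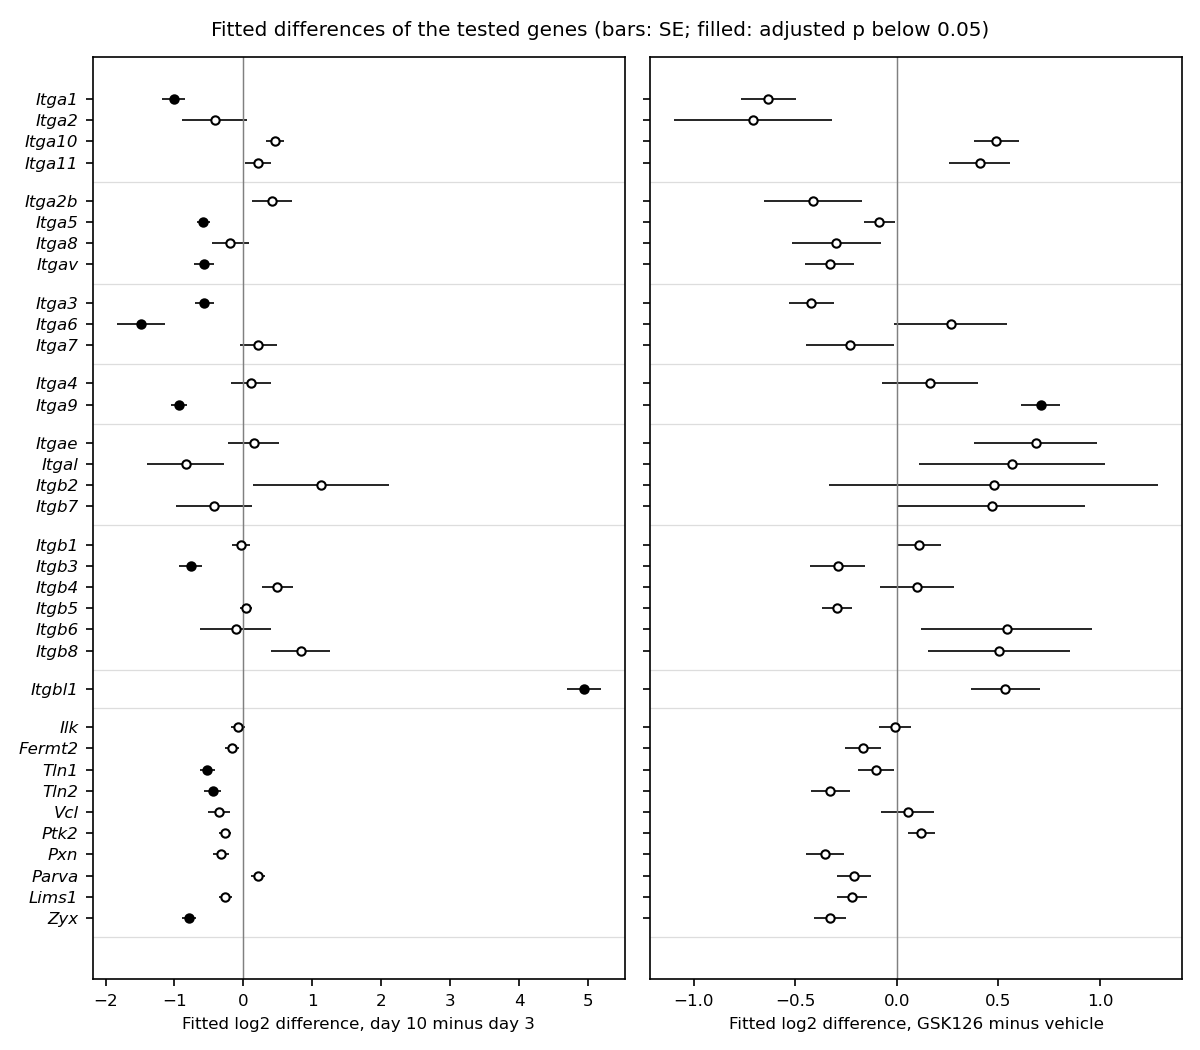
Fitted log2 differences (horizontal axes) of the 34 tested genes for day 10 minus day 3 (left) and GSK126 minus vehicle (right), with SE bars and filled points where the edgeR adjusted p was below 0.05. Grey lines separate the roles in the order collagen, RGD and laminin receptor chains, Itga4 and Itga9, leukocyte integrins, the other beta chains, Itgbl1 and intracellular partners. On the left 11 points are filled, on the right Itga9 alone.

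Itga9 was higher with GSK126 on each day. The day-3 libraries held 1.73 RPKM in vehicle and 3.15 RPKM with GSK126, the day-6 libraries 1.38 and 2.09 RPKM, and the day-10 libraries 0.948 and 1.44 RPKM. The GSK126 library was above its vehicle library within each day, although the treatments overlapped across days. The 3 log2 ratios in order of day were 0.86 (95% interval 0.74 to 0.98), 0.60 (0.45 to 0.75) and 0.66 (0.48 to 0.85). These exact binomial intervals compare 1 library with 1 library and cover counting error only. The fitted difference was 0.71 (SE 0.10, 1.63-fold, higher in 3 of 3 pairs, edgeR adjusted p = 0.0434). The call rests on all 3 days together: without day 3, day 6 or day 10 the difference was 0.64, 0.76 or 0.73 with edgeR adjusted p of 0.106, 0.153 or 0.152, and with no day term the edgeR adjusted p was 0.695.

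The collagen receptor chains differed in sign. Itga10 had log2 ratios of 0.20 (0.15 to 0.25), 0.61 (0.57 to 0.66) and 0.65 (0.60 to 0.70) on days 3, 6 and 10, and a fitted difference of 0.49 (SE 0.11, edgeR adjusted p = 0.0962). Itga11 had ratios of -0.03 (-0.08 to 0.02), 0.73 (0.68 to 0.78) and 0.52 (0.47 to 0.57), and a fitted difference of 0.41 (SE 0.15, edgeR adjusted p = 0.233). In both the ratio was smallest on day 3, where Itga10 was above vehicle and the interval of Itga11 included 0. Itga1 had ratios of -0.27 (-0.35 to -0.19), -0.89 (-1.03 to -0.77) and -0.73 (-0.86 to -0.61), and a fitted difference of -0.63 (SE 0.13, edgeR adjusted p = 0.0883, lower in 3 of 3 pairs).

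The RGD and laminin receptor chains differed among themselves. Itga3 had log2 ratios of -0.12 (-0.18 to -0.06), -0.60 (-0.67 to -0.53) and -0.55 (-0.62 to -0.47) on days 3, 6 and 10 (fitted -0.42, SE 0.11, edgeR adjusted p = 0.13). Itgav had ratios of -0.20 (-0.23 to -0.17), -0.66 (-0.69 to -0.62) and -0.14 (-0.18 to -0.10), so that day 6 was the lowest. Itga8 changed sign, with 0.39 (0.33 to 0.44) on day 3 and -0.67 (-0.73 to -0.61) and -0.60 (-0.67 to -0.54) on days 6 and 10. Its fitted difference of -0.30 (SE 0.22, edgeR adjusted p = 0.524) averages over days of opposite sign. Itga5 stayed within -0.19 and 0.05 on every day. Itga6 went from 0.78 (0.51 to 1.07) on day 3 to -0.52 (-1.06 to -0.01) on day 10, and without day 3 its fitted difference turned from 0.26 to -0.01.

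Of the beta chains Itgb5 was lower by a like amount on every day, with log2 ratios of -0.24 (-0.27 to -0.21), -0.34 (-0.37 to -0.31) and -0.31 (-0.34 to -0.28). Its fitted difference was -0.29 (SE 0.07, edgeR adjusted p = 0.12), and DESeq2 called it (adjusted p = 0.0186). Itgb3 was near vehicle early (-0.09 on day 3, -0.12 on day 6) and at -0.68 (-0.78 to -0.58) on day 10. Itgb1 had -0.09 (-0.11 to -0.07) on day 3 and 0.32 (0.30 to 0.34) on day 10. Itgb8, which held 0.137, 0.360 and 0.427 RPKM in vehicle and 0.340, 0.546 and 0.321 RPKM with GSK126, had the largest day-3 ratio of the beta chains above 1 CPM, 1.27 (0.67 to 1.97).

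**Figure D3:**
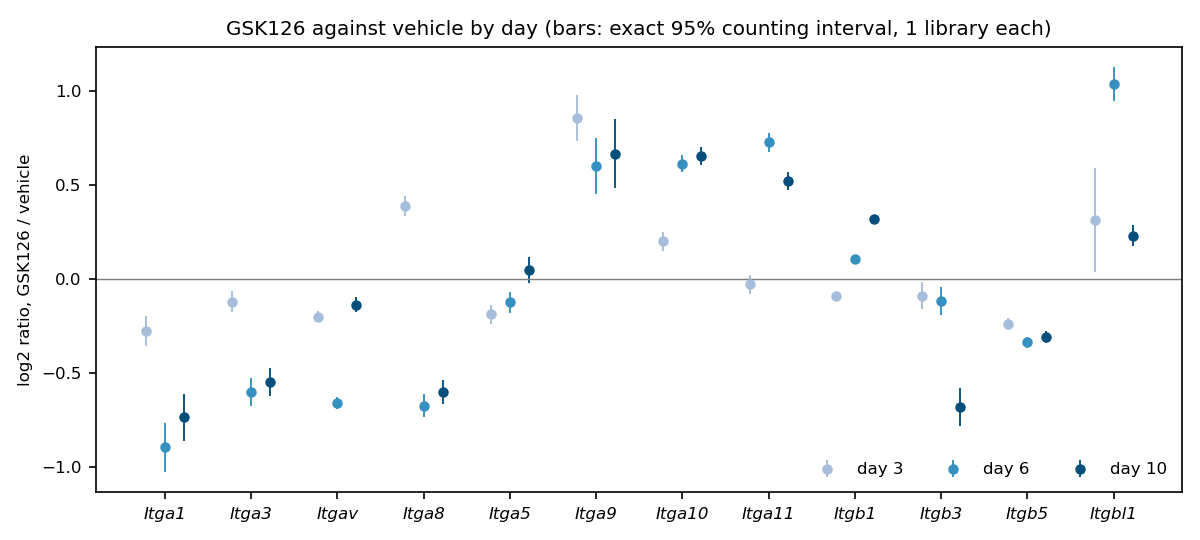
Log2 ratio of the GSK126 library to the vehicle library (vertical axis) on days 3, 6 and 10 (light to dark blue) for 12 of the genes, with exact 95% binomial intervals that cover counting error only. Itga9 lies above 0 on every day, Itga1, Itga3 and Itgb5 lie below 0 on every day, and Itga8 lies at 0.39 on day 3 and at -0.67 and -0.60 on days 6 and 10.

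Itgbl1 had its largest inhibitor ratio in the middle of the course. Day 6 gave a log2 ratio of 1.03 (0.95 to 1.13), above those of day 3, 0.31 (0.04 to 0.59), and day 10, 0.23 (0.18 to 0.29). The fitted difference was 0.53 (SE 0.17, edgeR adjusted p = 0.177). On day 6 Itgbl1 was the 1 gene of the 36 with at least a 2-fold ratio and 1 CPM or more, beside 4.15% of such genes in all. On day 3 these were Itgal and Itgb8 (beside 1.51%), both higher, and on day 10 Itga2b, lower (beside 2.44%). Itga2b had a day-10 log2 ratio of -1.08 (-1.35 to -0.82). Itgal, a leukocyte chain, had a day-3 ratio of 1.71 (1.01 to 2.59), and ratios of 0.09 and -0.20 on days 6 and 10. Its libraries held 0.0515, 0.102 and 0.0600 RPKM in vehicle and 0.177, 0.109 and 0.0498 RPKM with GSK126. The other leukocyte chains were also scarce. Itgb7 held 0.244, 0.0743 and 0.105 RPKM in vehicle and 0.151, 0.177 and 0.195 RPKM with GSK126. Itgae, which Gsg2 overlaps, held 0.0558, 0.0568 and 0.0542 RPKM in vehicle and 0.0915, 0.0726 and 0.103 RPKM with GSK126. Itgb2 reached 0.177 RPKM in 1 library.

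No intracellular partner passed the test of the inhibitor, beside 1.01% of all genes higher and 0.272% lower. Zyx had log2 ratios of -0.28, -0.47 and -0.24 on days 3, 6 and 10 (fitted -0.33, SE 0.08, edgeR adjusted p = 0.113). Pxn stood at -0.36 (SE 0.09, edgeR adjusted p = 0.133), with -0.54 (-0.67 to -0.41) on day 10. Tln2 stood at -0.33 (SE 0.10, edgeR adjusted p = 0.158), with -0.57 (-0.65 to -0.49) on day 6. Vcl went from -0.07 and -0.17 on days 3 and 6 to 0.40 (0.37 to 0.42) on day 10, and without day 10 its fitted difference turned from 0.05 to -0.12. Ilk stayed between -0.10 and 0.12. Over all 34 genes, 11 were lower on all 3 days (32.4%, beside 22.7% of all genes) and 6 were higher on all 3 days (17.6%, beside 22.1%). The 11 were Itga1, Itga3, Itgav, Itgb3, Itgb5, Fermt2, Lims1, Parva, Pxn, Tln2 and Zyx, and the 6 were Itga9, Itga10, Itgae, Itgb6, Itgbl1 and Ptk2. Between vehicle and GSK126 summed smooth muscle markers were also lower with GSK126 on each day: the vehicle sums were 2644, 1739 and 1017 CPM and the GSK126 sums 1842, 741 and 757 CPM. Most of these sums was Acta2 (-0.75, SE 0.19, edgeR adjusted p = 0.126), and of the 5 markers Tagln alone passed (-0.54, SE 0.07, edgeR adjusted p = 0.0428). Des (0.48, SE 0.14) and Cnn1 (0.42, SE 0.38) had positive differences, and Des was higher with GSK126 on every day. Their part in the lower adhesion genes was not tested.

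Most alpha chains share their beta chain with others, and their levels were also set against each other as shares of the summed alpha chain RPKM, which lay between 111 and 137 in the 6 libraries. In vehicle the collagen-binding chains made up 30.9%, 30.2% and 36.9% of the sum on days 3, 6 and 10. With GSK126 they made up 32.2%, 47.1% and 49.6%. The RGD-binding chains took 55.4%, 58.4% and 50.4% in vehicle and 53.2%, 43.6% and 41.3% with GSK126. Laminin-binding chains took 12.3%, 10.0% and 11.7% in vehicle and 11.9%, 7.37% and 7.61% with GSK126. The treatments were close on day 3 and apart on days 6 and 10, and with 1 library per group these shares have no test. All are parts of the same sum, so a larger share of some chains means a smaller share of others and is no separate result. In vehicle, for example, Itgav went from 39.2 to 26.1 RPKM between days 6 and 10. Over the same days Itga10 went from 18.6 to 18.5 RPKM and Itga11 from 16.2 to 18.3 RPKM. On the beta side Itgb1 took 62.6%, 59.6% and 57.9% of the summed beta chain RPKM in vehicle and 64.7%, 66.2% and 68.3% with GSK126, and Itgb5 took 34%, 37.0% and 39.1% in vehicle and 31.7%, 30.3% and 29.9% with GSK126.

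**Figure D4:**
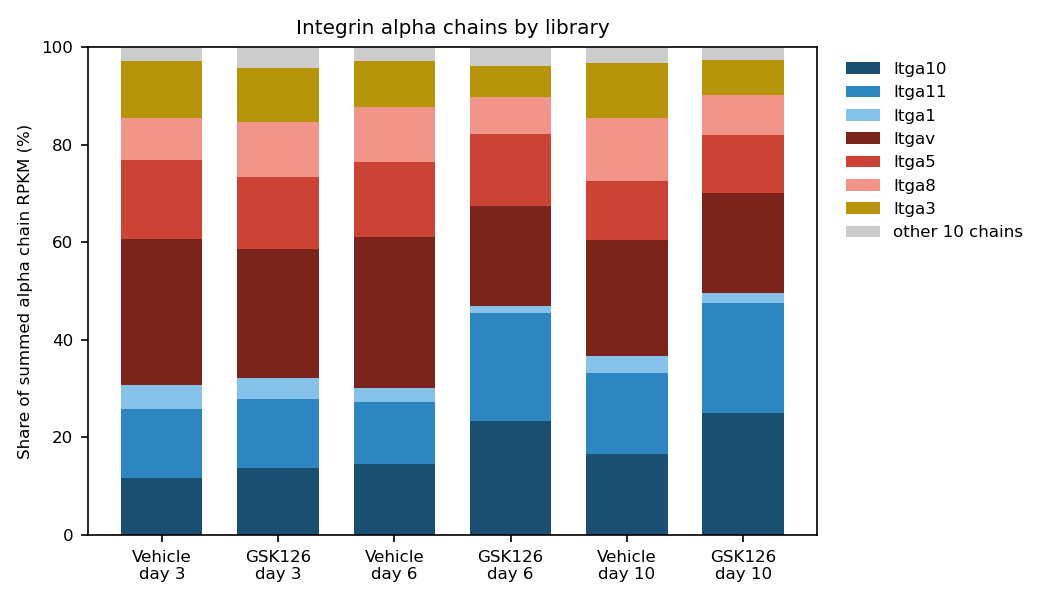
Share of the summed RPKM of the 17 integrin alpha chains (vertical axis, percent) in each of the 6 libraries (bars, 1 library each), with collagen-binding chains in blue, RGD-binding chains in red and Itga3 in ochre. The blue part, mostly Itga10 and Itga11, is 47.1% and 49.6% with GSK126 on days 6 and 10, beside 30.2% and 36.9% in vehicle.

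Whether the inhibitor difference itself changed after removal was tested by setting the day-10 difference against that of the earlier days, which left 1 residual degree of freedom. edgeR's quasi-likelihood test called 0 of the 34 genes (0% of all genes in either direction), as did DESeq2 and limma-voom. At an unadjusted p below 0.05 there were 5 of 34 (14.7%, beside 7.01% of all genes): Itga2b (-1.0), Itga6 (-1.15), Itgb2 (-3.30) and Itgb3 (-0.58) on the log2 scale, and Vcl (0.51). Itga9 stood at -0.06 (SE 0.20), Itga10 at 0.25 (SE 0.23) and Itga1 at -0.15 (SE 0.30).

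H3K27me3 was read from the authors' SICER islands, regions of enrichment called once per treatment on 1 library against its input. Islands lay within 2500 bases of 6 of the 36 genes in the vehicle list (16.7%, beside 21.4% of all genes), namely Itga4, Itga6, Itga8, Itgal, Itgam and Itgax. In the GSK126 list there were also 6 (beside 18.4% of all genes), namely Itga4, Itga8, Itgb6, Itgal, Itgam and Itgax. The vehicle list held 34498 islands over 147889400 bases, and the GSK126 list 24947 islands over 166748800 bases. The islands held 2107564 ChIP and 1503351 input reads in vehicle, and 2530446 and 2151652 with GSK126. The lists thus differ in island width and reads, and the number of islands alone does not measure the amount of the mark. Most of these genes were hardly transcribed: 5 of the 13 genes with a mean RPKM below 1 had a vehicle island (38.5%, beside 33.5% of all genes at such levels), and 1 of the 23 genes at 1 RPKM or more (4.35%, beside 7.43%). That 1 gene was Itga8, whose vehicle island (chr2:12299001-12301600, the authors' fold enrichment 1.79, from 34 ChIP and 32 input reads) lay inside the gene with its nearer edge 320 bases from the start. In the GSK126 list the Itga8 island lay elsewhere in the gene, at chr2:12265201-12273800. At Itgam the vehicle island (chr7:128063001-128064800, fold enrichment 3.92) began 361 bases from the start, and the GSK126 island lay 44161 bases into the gene. At these genes the first Itgal island and 1 Itgax island overlapped between the lists. The share of all islands that overlap the other list was not computed, so this count says nothing particular about these genes. Among the 11 genes that changed between days 3 and 10, Itga6 alone had an island, in the vehicle list, and none was found at Itgbl1 or Itga9. Around the gene start alone (2500 bases to each side), islands were found at 2 of 25 genes in the vehicle list (8%, beside 14.1% of all genes) and 1 in the GSK126 list (4%, beside 11%). The difference between the lists at a single gene was not tested.

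The wider adhesion system was described with 3 further lists. Of 40 other adhesion adaptors 38 were tested, and between days 3 and 10 edgeR called 3 higher (7.89%) and 10 lower (26.3%), beside 14.1% and 12.5% of all genes, with a median log2 difference of -0.13. The falls were largest in Ptk2b (-0.97, SE 0.14), a kinase related to Ptk2, the actin crosslinker Flna (-0.85, SE 0.15), the actin-associated scaffold Palld (-0.83, SE 0.18), the zyxin relative Lpp (-0.77, SE 0.13) and Vasp (-0.63, SE 0.08), which helps actin filaments grow. Higher were Itgb1bp1 (0.63, SE 0.11), which binds the Itgb1 tail, the tensin Tns1 (0.55, SE 0.12) and the adaptor Shc1 (0.31, SE 0.08), the last without a call under library size scaling (edgeR adjusted p = 0.14). With GSK126 edgeR called 0 of these 38 in either direction, beside 1.01% of all genes higher and 0.272% lower.

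Among the 24 integrin ligands, 4 rose and 7 fell between days 3 and 10 by edgeR (16.7% and 29.2%, beside 14.1% and 12.5% of all genes). Vitronectin, Vtn (2.38, SE 0.40), osteopontin, Spp1 (2.19, SE 0.40), bone sialoprotein, Ibsp (2.16, SE 0.26), and fibronectin, Fn1 (0.98, SE 0.16), rose. Vtn stayed scarce, at 0.219 RPKM on day 3 and 1.60 RPKM on day 10 in vehicle and 0.132 and 0.438 RPKM with GSK126. Fn1 held 723, 933 and 1242 RPKM in vehicle and 659, 996 and 1371 RPKM with GSK126 on days 3, 6 and 10. The falls were led by periostin, Postn (-1.40, SE 0.28), nephronectin, Npnt (-1.19, SE 0.19), the laminin chains Lamb1 (-1.15, SE 0.18) and Lamc1 (-0.77, SE 0.10), and fibrillin, Fbn1 (-0.87, SE 0.21). Nephronectin is the ligand of the RGD-binding chain Itga8, so ligands of RGD-binding chains moved in both directions. With GSK126, Ibsp (2.18, SE 0.22, edgeR adjusted p = 0.0251) and tenascin-C, Tnc (1.19, SE 0.14, edgeR adjusted p = 0.0312), were higher, and Vcam1 (-0.66, SE 0.08, edgeR adjusted p = 0.0367) was lower. Osteopontin, which like tenascin-C binds Itga9, did not pass (0.55, SE 0.32, edgeR adjusted p = 0.42). The 2 higher are 8.33% of the 24 and the 1 lower is 4.17%, beside 1.01% and 0.272% of all genes. Tnc held 78.8, 71.5 and 61.6 RPKM in vehicle and 141, 186 and 151 RPKM with GSK126. The calls of Ibsp and Tnc were lost without day 6 (edgeR adjusted p = 0.105 and 0.125) and without day 10 (0.0918 and 0.152 with edgeR), and that of Vcam1 without any 1 day (edgeR adjusted p from 0.0555 to 0.161). Here too, fits with a day left out have fewer residual degrees of freedom. Of the 8 membrane partners, Sdc4 (0.62, SE 0.09) and Cd9 (0.48, SE 0.10) rose and Cav1 (-0.91, SE 0.25) fell between days 3 and 10 (25% and 12.5%, beside 14.1% and 12.5% of all genes). With GSK126 edgeR called 0 of the 8, beside 1.01% of all genes higher and 0.272% lower. The call of Cav1 was lost without the filter on low counts (edgeR adjusted p = 0.0501) and with the libraries of days 3 and 10 alone (edgeR adjusted p = 0.0632).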

How the data were processed

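Per the submitters' processing notes, reads were handled with CASAVA 1.9, BWA 0.5.9, TopHat2 2.0.6, HTSeq 0.5.3p9 and SICER 1.1 on mouse build mm10. SICER settings, the mode of counting and the release of the annotation were not given in the sources used here. Gene counts, as deposited, are whole and not normalized. The deposited RPKM divides them by coding length and by a library total larger than the sum of the deposited counts, so that RPKM and CPM are scaled differently. The authors' island lists give ChIP and input counts, a p-value and a fold ratio over input per island. Here, counts were tested with edgeR 4.0.16 (R 4.3.3, TMM, filterByExpr on treatment, additive day and treatment, Benjamini-Hochberg adjusted p below 0.05) over 14344 genes, with 2 residual degrees of freedom; scripts were tested on simulated data. Each SE is the log2 difference divided by the root of its F statistic, and what edgeR names the biological coefficient of variation was 14.8%. Both rest on how far the treatment differences vary between days and not on replicates. Alternatives were DESeq2 1.42.0, limma-voom (limma 3.58.1), library size scaling, no filter, counts divided by 2, each day left out, no day term and pairs of days alone. Daily log2 ratios came from CPM on TMM library sizes (prior count 2). Values in every library are given for genes that passed a test, the 3 highest of each role by mean RPKM, and genes with a 2-fold ratio on any day at 1 CPM or more, with the other genes given by ranges; of other lists, up to 5 called genes per direction are named. The 36 genes and all lists were chosen with earlier results of these data known. No per-sample columns were left unmapped.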

Additional observations from a re-analysis of the deposited data

How the results depend on the processing

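DESeq2 also called more genes in all. Its calls among the 36 genes were 2 higher and 4 lower for GSK126 (beside 4.99% and 4.61% of all genes), 2 higher and 10 lower for day 10 against day 3 (beside 17.6% and 14.9%), 3 higher and 3 lower for day 6 against day 3 (beside 7.39% and 5.51%), and 1 higher and 5 lower for day 10 against day 6 (beside 9.23% and 8.4%). The GSK126 call of Itga9 was lost with no day term (0 higher) and when any day was left out (0 to 0 higher). Between days 3 and 6, library size scaling and no filter each gave 1 lower, Itga1. The 10 falls from day 3 to day 10 numbered 9 without the filter and 12 with library size scaling, and 10 under the other alternatives, edgeR's legacy quasi-likelihood fit included, which was chosen after seeing the data. Library size scaling also moved the median log2 difference of all genes to -0.107 in that comparison. Shares of all genes are not set beside these counts of falls, which thus say nothing particular about the 36 genes. The same holds for the count between days 3 and 6. GSK126 differences that had not passed turned their sign when 1 day was left out: Itga6 (-0.015 to 0.62, lowest without day 3), Itgal (-0.043 to 0.92, without day 3), Itgb2 (-0.58 to 1.58, without day 6), Itgb4 (-0.074 to 0.23, without day 6), Ilk (-0.074 to 0.045, positive without day 3 and, at 0.0052, without day 6) and Vcl (-0.12 to 0.16, negative without day 10). For day 10 against day 3, Itgb5 turned to -0.062 with library size scaling. The cause was not tested. Islands within 2500 bases of the gene start alone were found at 2 genes (vehicle) and 1 gene (GSK126) of the 25 with a known strand, and islands of at least 2-fold enrichment at 4 genes (vehicle, beside 18.8% of all genes) and 2 genes (GSK126, beside 13%). The day term already pairs the vehicle and GSK126 library of each day, and the labels carry no replicate numbers for a further block. Single days have 1 library per treatment and no test, and scarce chains such as Itgb2 and Itgb6 rest on few counts.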
